A study of Mus musculus with 6 samples.

Results

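The proximal tubule, the first stretch of the nephron after the glomerulus, takes back nearly all filtered glucose and most of the filtered bicarbonate and sodium. 9 genes encoding carriers for this work were described: the sodium-coupled cotransporters Slc5a1, Slc5a2, Slc5a10 and Slc5a12, the facilitative sugar carriers Slc2a1, Slc2a2 and Slc2a5, the sodium bicarbonate cotransporter Slc4a4 and the sodium-proton exchanger Slc9a3. They were taken by gene name from 13696 protein-coding genes in the deposited kidney tables, and all 9 were present. The choice was made with earlier results of these data known. All 9 also passed the filter on low values, which asked for 1 FPKM or more in 3 or more libraries. FPKM counts sequenced fragments relative to transcript length and library size, and the values of all listed transcripts of a gene were summed.

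The kidneys came from mice 24 months old. 3 libraries were from wild-type (WT) mice, and 3 were from mice labelled as a fat-1 knockin, called fat-1 here. The nematode gene fat-1 encodes an enzyme, absent from mammals, that makes omega-3 fatty acids out of omega-6 ones. The comparison asks what carrying it changes in the aged kidney. The sources used here do not give strain, sex, the promoter driving fat-1, the time of collection or any pooling. They also do not say that each library is a separate mouse, and p-values therefore measure only the spread between these libraries, which may be technical. The transgene was not analysed here, so no check of the genotype labels was made.

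The libraries did not sample the tissue alike, and 3 of them stood apart in marker lists. WT replicate 1 had the highest summed level of 5 macrophage markers, 415 FPKM against 72.9 to 132 FPKM in the others. Fat-1 replicate 1 had the highest sums of erythroid and of injury markers. Fat-1 replicate 3 had the lowest sum of early proximal tubule markers and the highest sum of thick ascending limb markers. For transporters at an extreme in 1 of these libraries, the difference without it is given beside the value or with the processing alternatives.

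Glucose is reclaimed in an early and a late step. In the early, convoluted tubule (segments S1 and S2), the high-capacity cotransporter encoded by Slc5a2 (SGLT2) brings glucose in across the brush border, and the carrier encoded by Slc2a2 (GLUT2) lets it out to the blood side. In the late, straight tubule (segment S3), Slc5a1 (SGLT1, high affinity) and Slc2a1 (GLUT1) do the corresponding work. Slc9a3 (NHE3) exchanges sodium for protons at the brush border, and Slc4a4 (NBCe1) carries the recovered bicarbonate out together with sodium. Slc5a12 (SMCT2) takes up lactate with sodium, Slc2a5 (GLUT5) carries fructose, and Slc5a10 (SGLT5) cotransports mannose and fructose with sodium. Slc5a2, Slc2a2, Slc5a12, Slc4a4 and Slc9a3 were counted as early (5 genes) and Slc5a1, Slc2a5 and Slc2a1 as late (3 genes). Slc5a10 was placed in neither set because its segment in the mouse was not certain enough. Slc2a1 is also made outside the proximal tubule, and Slc9a3 also in the thick ascending limb.

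Promoter sequences are shown for the 3 genes whose fat-1 values all lay above all WT values (Slc2a5, Slc5a10 and Slc5a1), for the early glucose exit carrier Slc2a2, and for both starts of Slc4a4, whose transcripts are compared further on. Windows of 300 bases, from 250 bases before to 50 bases after an annotated start, came from RefSeq on build GRCm38.p6, which has the coordinates of mm10, and 7 of the 9 genes had at least 1 window. Capitals mark exact matches on either strand to 4 short motifs, and the rest is in lower case. One is AGGTCA, the half-site that many nuclear receptors share. The remaining motifs are the GC box, written GGGCGG, which is common in promoters without tissue restriction, the TATA box, searched here as TATAAA in every window, and the E-box, for which the palindrome CACGTG was used. All windows are written 5′ to 3′ on the strand of the gene.
Slc2a5, chr4:150119094-150119393, plus strand: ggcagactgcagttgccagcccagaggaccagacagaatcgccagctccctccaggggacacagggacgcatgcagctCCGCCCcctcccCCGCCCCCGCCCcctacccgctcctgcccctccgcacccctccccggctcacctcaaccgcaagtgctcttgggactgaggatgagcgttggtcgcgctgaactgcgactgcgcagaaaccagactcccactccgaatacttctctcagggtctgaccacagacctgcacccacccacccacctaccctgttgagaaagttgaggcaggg
Slc5a10 upstream start, chr11:61720750-61721049, minus strand: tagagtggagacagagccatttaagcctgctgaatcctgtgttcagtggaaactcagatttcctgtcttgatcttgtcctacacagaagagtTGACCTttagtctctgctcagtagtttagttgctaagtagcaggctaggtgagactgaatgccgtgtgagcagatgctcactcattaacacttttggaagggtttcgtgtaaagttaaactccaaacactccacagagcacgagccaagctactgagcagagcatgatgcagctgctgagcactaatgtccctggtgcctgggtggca
Slc5a10 downstream start, chr11:61719936-61720235, minus strand: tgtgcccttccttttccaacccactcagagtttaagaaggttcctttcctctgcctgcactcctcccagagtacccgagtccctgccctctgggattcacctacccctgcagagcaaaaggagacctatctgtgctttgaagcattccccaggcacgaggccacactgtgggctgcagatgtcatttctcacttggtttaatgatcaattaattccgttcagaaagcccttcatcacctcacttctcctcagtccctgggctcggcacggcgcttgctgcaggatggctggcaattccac
Slc5a1, chr5:33103969-33104268, plus strand: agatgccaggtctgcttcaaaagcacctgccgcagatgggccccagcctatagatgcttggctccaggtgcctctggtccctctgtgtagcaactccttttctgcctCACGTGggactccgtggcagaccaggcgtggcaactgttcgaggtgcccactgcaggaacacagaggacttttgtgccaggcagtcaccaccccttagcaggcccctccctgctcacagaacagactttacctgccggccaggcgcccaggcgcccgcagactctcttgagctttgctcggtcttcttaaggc
Slc2a2, chr3:28697653-28697952, plus strand: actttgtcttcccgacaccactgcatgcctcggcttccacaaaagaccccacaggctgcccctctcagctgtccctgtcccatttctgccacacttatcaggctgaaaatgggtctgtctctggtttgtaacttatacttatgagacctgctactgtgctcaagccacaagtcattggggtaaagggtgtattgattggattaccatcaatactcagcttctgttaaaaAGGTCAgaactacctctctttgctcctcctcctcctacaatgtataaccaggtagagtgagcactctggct
Slc4a4 outer start, chr5:88887010-88887309, plus strand: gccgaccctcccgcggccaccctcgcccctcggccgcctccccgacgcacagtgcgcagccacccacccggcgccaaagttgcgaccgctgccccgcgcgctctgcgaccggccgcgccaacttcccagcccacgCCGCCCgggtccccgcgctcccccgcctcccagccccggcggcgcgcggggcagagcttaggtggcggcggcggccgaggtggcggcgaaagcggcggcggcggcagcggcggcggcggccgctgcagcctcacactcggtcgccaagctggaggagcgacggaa
Slc4a4 inner start, chr5:89027716-89028015, plus strand: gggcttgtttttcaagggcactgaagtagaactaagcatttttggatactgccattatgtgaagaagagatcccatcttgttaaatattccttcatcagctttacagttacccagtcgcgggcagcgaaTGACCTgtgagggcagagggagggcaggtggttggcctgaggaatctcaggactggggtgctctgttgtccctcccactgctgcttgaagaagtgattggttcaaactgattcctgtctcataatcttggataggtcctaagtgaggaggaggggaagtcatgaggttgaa

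The windows differed in kind. That of Slc2a5 held 3 GC boxes and had a GC content of 65.3%, against a median of 52.7% over all 32851 mouse windows, 35.7% of which hold a GC box. The upstream window of Slc5a10 held 1 nuclear receptor half-site, 158 bases before the start, a motif that 16.3% of all windows hold. The downstream window of Slc5a10 held none of the 4 motifs. In the Slc5a1 window the only match was an E-box, found in 7.15% of all windows, and in the Slc2a2 window it was a nuclear receptor half-site 21 bases before the start. A TATA box, found in 13.6% of all windows, was matched in Slc2a1 alone of the 7 genes, 28 bases past its start. The outer Slc4a4 window had a GC content of 80% and held 1 GC box, while the inner window had 48.3% and held 1 nuclear receptor half-site. A match describes the letters only. No 2 matches shared a base, and 2 of the GC boxes in Slc2a5 adjoin.

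Slc2a5, Slc5a10 and Slc5a1 measured higher in every fat-1 library than in every WT library, but with limma 0 of the 9 genes had an adjusted p under 0.05. An unadjusted p under 0.05 was found for these 3. Over all 11698 genes tested, 0.180% passed the adjusted threshold (0.120% higher in fat-1) and 9.97% had an unadjusted p under 0.05 (5.80% higher). Groups did not overlap for 15.2% of all genes (8.33% higher and 6.86% lower in fat-1). 5 of the 9 differences were positive and 4 negative, with a median of 0.15 on the log2(FPKM + 1) scale, against 0.01 over all genes tested. Differences on this scale are fat-1 minus WT and understate the change of low genes.

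**Figure D1:**
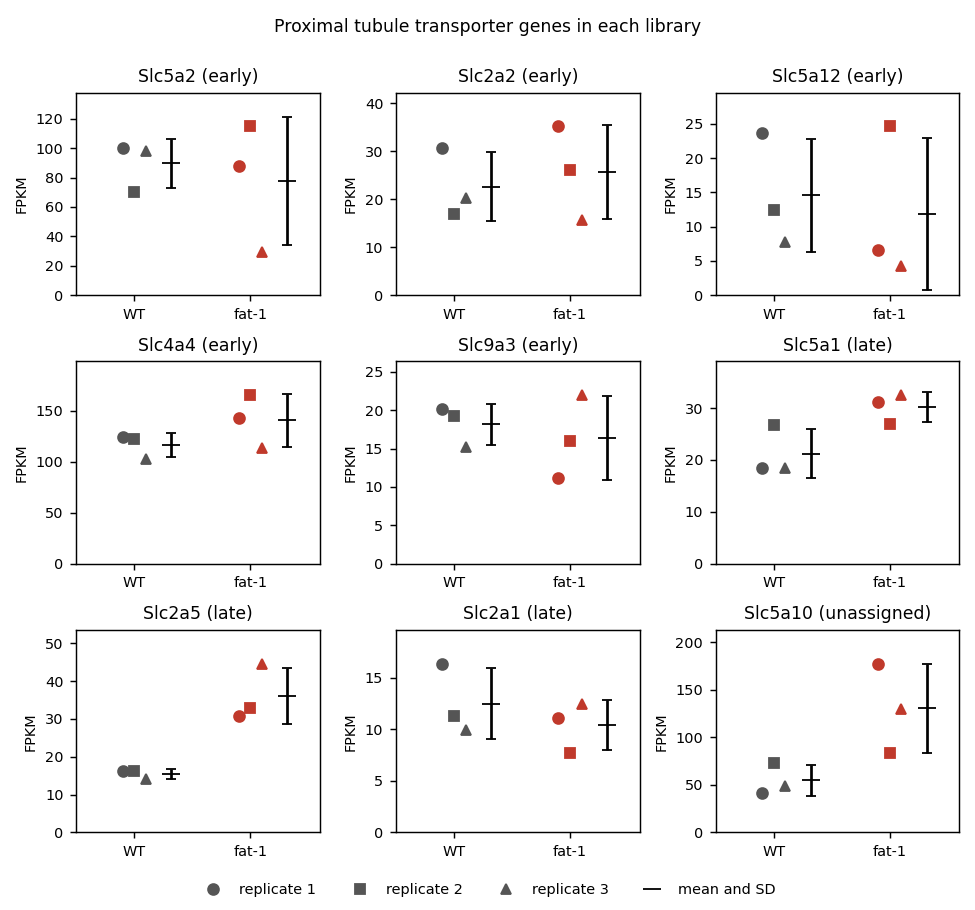
FPKM of the 9 transporter genes in each library (vertical axes, each starting at 0), WT in grey and fat-1 in red, with a marker shape for each replicate number, which does not pair the groups; bars show the mean and SD of 3 libraries. Slc2a5, Slc5a1 and Slc5a10 have all fat-1 points above all WT points, and the lowest Slc5a2 point, 29.5 FPKM, is fat-1 replicate 3.

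Slc2a5, the fructose carrier (ENSMUSG00000028976.10, chromosome 4, 150119283 to 150144169, plus strand), had the smallest p of the 9. Its values were 16.3, 16.3 and 14.0 FPKM in WT replicates 1 to 3 and 30.7, 32.8 and 44.6 in fat-1 replicates 1 to 3. The WT values lay close together and all fat-1 values lay above them. The means were 15.6 ± 1.33 and 36.0 ± 7.48 FPKM (SD, n = 3), a ratio of 2.31. The log2 difference was 1.15 ± 0.16 (SE), with a 95% interval from 0.76 to 1.53 (limma, adjusted p = 0.0655). With a stricter filter of 5 FPKM, which kept 7911 genes, the same difference had an adjusted p of 0.0442 in limma. Over all 16 alternatives it lay between 0.99 and 1.25, with adjusted p between 0.0442 and 0.256 in limma. It was 0.99 without fat-1 replicate 3, the highest library, and 1.02 with WT replicate 1 and fat-1 replicate 3 left out together. The table lists 1 transcript for this gene.

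Slc5a10, the mannose and fructose cotransporter (ENSMUSG00000042371.12, chromosome 11, 61672782 to 61720799, minus strand), had the largest difference. It measured 41.2, 73.3 and 49.0 FPKM in WT replicates 1 to 3 and 177, 83.8 and 129.8 in fat-1 replicates 1 to 3. The groups did not overlap, though fat-1 replicate 2 lay near WT replicate 2, and the highest fat-1 value was 2.11 times the lowest. The means were 54.5 ± 16.7 and 130.3 ± 46.7 FPKM (SD, n = 3), a ratio of 2.39. The log2 difference was 1.22 ± 0.32 (SE; 95% interval 0.46 to 1.98; limma, adjusted p = 0.235). It was 0.97 without fat-1 replicate 1, the highest library, and 1.04 without WT replicate 1, the lowest. With WT replicate 1 and fat-1 replicate 3 left out together it was 1.01. An oppositely oriented gene, Fam83g, overlaps Slc5a10 over 25861 bases. The sources used here do not say whether strand was used in counting, so their reads may not be told apart. Fam83g measured between 0.791 and 2.19 FPKM in the 6 libraries, below the lowest Slc5a10 value in each.

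Slc5a1, the late glucose cotransporter (ENSMUSG00000011034.6, chromosome 5, 33104219 to 33162870, plus strand), measured 18.5, 26.7 and 18.4 FPKM in WT replicates 1 to 3. In fat-1 replicates 1 to 3 it measured 31.1, 27.0 and 32.5 FPKM. The groups were separated by the narrow gap between WT replicate 2 and fat-1 replicate 2. The means were 21.2 ± 4.78 and 30.2 ± 2.86 FPKM (SD, n = 3), and the log2 difference was 0.51 ± 0.17 (SE; 95% interval 0.10 to 0.91; limma, adjusted p = 0.368). Over the 16 alternatives the difference stayed positive, between 0.37 and 0.68. Without fat-1 replicate 3, the highest library, it was 0.45.

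Slc2a1, the third of the late genes (chromosome 4, 119108711 to 119137983, plus strand), did not share this pattern. It measured 16.4, 11.3 and 9.90 FPKM in WT replicates 1 to 3 and 11.1, 7.73 and 12.5 in fat-1 replicates 1 to 3. The groups overlapped, and the log2 difference was -0.23 ± 0.24 (SE; 95% interval -0.79 to 0.32; limma, adjusted p = 0.859), and it was -0.04 without WT replicate 1. GLUT1 is also made in endothelium and red cells, and these marker lists are given further on.

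Slc5a2, the early glucose cotransporter (ENSMUSG00000030781.13, chromosome 7, 128265676 to 128272430, plus strand), was the most variable of the glucose carriers in fat-1. It measured 100.4, 70.3 and 98.4 FPKM in WT replicates 1 to 3. In fat-1 replicates 1 to 3 it measured 88.1, 115 and 29.5 FPKM, so fat-1 held both the highest and the lowest of the 6 values. The log2 difference was -0.40 ± 0.48 (SE), with a 95% interval from -1.55 to 0.76 (limma, adjusted p = 0.888). Without fat-1 replicate 3 it was 0.18, with the opposite sign. BC017158, on the other strand, overlaps Slc5a2 over 1052 bases and measured between 2.27 and 4.83 FPKM.

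Slc2a2, the early exit carrier (chromosome 3, 28697903 to 28731359, plus strand), measured 30.6, 16.9 and 20.3 FPKM in WT replicates 1 to 3. In fat-1 replicates 1 to 3 it measured 35.2, 26.1 and 15.8 FPKM. The ranges overlapped almost fully, and the log2 difference was 0.15 ± 0.33 (SE; 95% interval -0.63 to 0.93; limma, adjusted p = 0.959). The sign turned without WT replicate 2 (-0.03) or without fat-1 replicate 1 (-0.10), and the difference was 0.45 without fat-1 replicate 3. Neither early glucose carrier was separated between the groups, and both intervals reach well to either side of 0.

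Slc5a12, the lactate cotransporter (chromosome 2, 110597307 to 110647779, plus strand), spread most widely of the 9. It measured 23.7, 12.4 and 7.68 FPKM in WT replicates 1 to 3 and 6.52, 24.6 and 4.30 in fat-1 replicates 1 to 3. The highest value was 3.09 times the lowest in WT and 5.72 times in fat-1, and the groups overlapped. The log2 difference was -0.50 ± 0.64 (SE; 95% interval -2.03 to 1.04; limma, adjusted p = 0.895). Without fat-1 replicate 3, the lowest library, it was -0.0345, and without WT replicate 1 it was -0.10.

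Slc4a4, the basolateral bicarbonate exit (ENSMUSG00000060961.14, chromosome 5, 88886818 to 89239653, plus strand), had the highest mean of the 9 in both groups. It measured 124, 122 and 102 FPKM in WT replicates 1 to 3 and 143, 165 and 113 in fat-1 replicates 1 to 3. 2 of the 3 fat-1 values lay above all WT values, and the third lay among them. The log2 difference was 0.26 ± 0.17 (SE; 95% interval -0.14 to 0.66; limma, adjusted p = 0.732).

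Slc9a3, the brush border sodium-proton exchanger (chromosome 13, 74121515 to 74169442, plus strand), measured 20.1, 19.3 and 15.2 FPKM in WT replicates 1 to 3. In fat-1 replicates 1 to 3 it measured 11.1, 16.0 and 22.0 FPKM, a range that enclosed the WT values. The log2 difference was -0.18 ± 0.24 (SE; 95% interval -0.76 to 0.40; limma, adjusted p = 0.899). Without fat-1 replicate 1, the lowest library, it was 0.05, and without fat-1 replicate 3, the highest, it was -0.41.

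**Figure D2:**
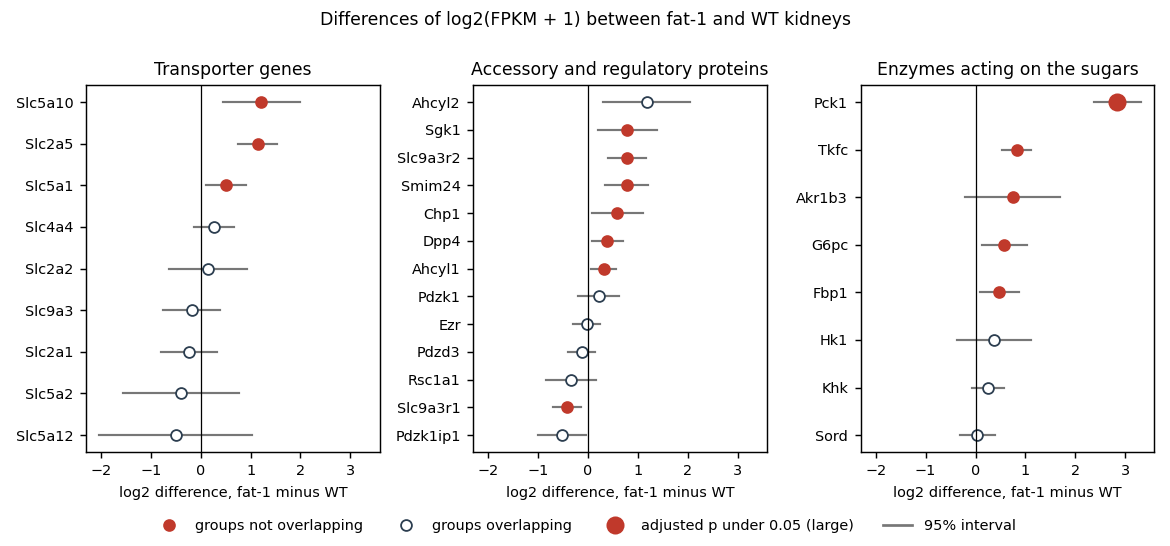
Log2 differences of log2(FPKM + 1), fat-1 minus WT, with 95% intervals from limma, for the transporter genes, their accessory and regulatory proteins, and 8 enzymes acting on the sugars; filled points are genes whose groups do not overlap, and the large point is the gene with an adjusted p under 0.05. Slc5a10, Slc2a5 and Slc5a1 are the filled points among the transporters, and Pck1 is the large point.

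Because FPKM is scaled by length, levels can be set in order. In WT the mean order was Slc4a4 (116 FPKM), Slc5a2 (89.7), Slc5a10 (54.5), Slc2a2 (22.6), Slc5a1 (21.2), Slc9a3 (18.2), Slc2a5 (15.6), Slc5a12 (14.6) and Slc2a1 (12.5). Only the steps from Slc4a4 to Slc5a2 and from Slc5a10 to Slc2a2 separated neighbours whose library ranges did not overlap. In fat-1 the mean order was Slc4a4 (140.4 FPKM), Slc5a10 (130.3), Slc5a2 (77.5), Slc2a5 (36.0), Slc5a1 (30.2), Slc2a2 (25.7), Slc9a3 (16.4), Slc5a12 (11.8) and Slc2a1 (10.4), and every pair of neighbours overlapped.

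The early and late sets were compared as a description, without a test. The median log2 difference was -0.18 over the 5 early genes, with 2 positive and 3 negative and 0 with groups apart. It was 0.51 over the 3 late genes, with 2 positive and 1 negative. Without Slc2a1 the late median was 0.83 over 2 genes, and without Slc9a3 the early median was -0.12 over 4 genes. The early median depended on 1 library: without fat-1 replicate 3 it was 0.18, and the late median was then 0.45.

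Ratios of length-scaled levels were also taken within each library. The ratio of Slc5a2 to Slc5a1 was 5.42, 2.63 and 5.35 in WT replicates 1 to 3 and 2.83, 4.25 and 0.907 in fat-1 replicates 1 to 3. In fat-1 replicate 3 alone the late cotransporter exceeded the early one. The ratio of the exit carriers Slc2a2 to Slc2a1 was 1.87, 1.50 and 2.05 in WT and 3.18, 3.38 and 1.26 in fat-1. Both ratios overlapped between the groups. Within the late pair, the ratio of Slc5a1 to Slc2a1 was 1.13, 2.38 and 1.86 in WT and 2.81, 3.49 and 2.60 in fat-1. The entry carrier was thus higher relative to the exit carrier in every fat-1 library, across a gap from 2.38 to 2.60. Within the early pair, the ratio of Slc5a2 to Slc2a2 overlapped, at 3.28 to 4.85 in WT and 1.87 to 4.40 in fat-1. How often such ratios separate for other gene pairs was not tested.

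Other markers of the same segments were set beside these values. Of 7 other S3 markers, 6 had a negative difference, with a median of -0.55, and 0 passed. Their summed level ranged from 660.4 to 1234 FPKM in WT and from 508 to 802 in fat-1. Slc7a13, an S3 amino acid carrier, measured 281, 521 and 481 FPKM in WT replicates 1 to 3 and 145, 277 and 282 in fat-1 replicates 1 to 3 (limma, adjusted p = 0.463). Slc5a8, the S3 counterpart of Slc5a12, measured 37.2, 60.4 and 46.9 FPKM in WT and 55.2, 56.4 and 56.6 in fat-1 (limma, adjusted p = 0.785). The groups overlapped for all 7 of these S3 markers, so 0 of them were separated in either direction, against 15.2% of all genes tested. With only 7 genes, 0 cannot be told from that share. In bulk tissue, fewer cells of a type and less RNA per cell cannot be told apart.

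Of 6 other early markers, 2 had a positive and 4 a negative difference (median -0.05), with 0 called and summed levels from 697 to 728 FPKM in WT and from 594 to 833 in fat-1. The lowest sum was that of fat-1 replicate 3, the library with the lowest Slc5a2, Slc2a2 and Slc5a12. In the same library the 4 thick ascending limb markers summed to 1389.7 FPKM, above the other libraries at 600.003 to 1124 FPKM. The part of segment sampling in these values was not tested. Slc6a19, a neutral amino acid carrier of the early segment, was listed at only 0.530 to 2.68 FPKM. 1 of the 6 early markers, Slc13a3, had groups apart and higher, against 8.33% of all genes tested. It measured 118, 216 and 183 FPKM in WT replicates 1 to 3 and 314, 315 and 273 in fat-1 (limma, adjusted p = 0.251). Gatm had a log2 difference of -0.65 with overlapping groups (limma, adjusted p = 0.499). Slc13a3 and Gatm were chosen after their values were seen. The 5 general proximal tubule markers, which include the endocytic receptor gene Lrp2 at 107 to 170 FPKM, summed to between 2189.7 and 3194 FPKM and were not called (0 of 5).

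**Figure D3:**
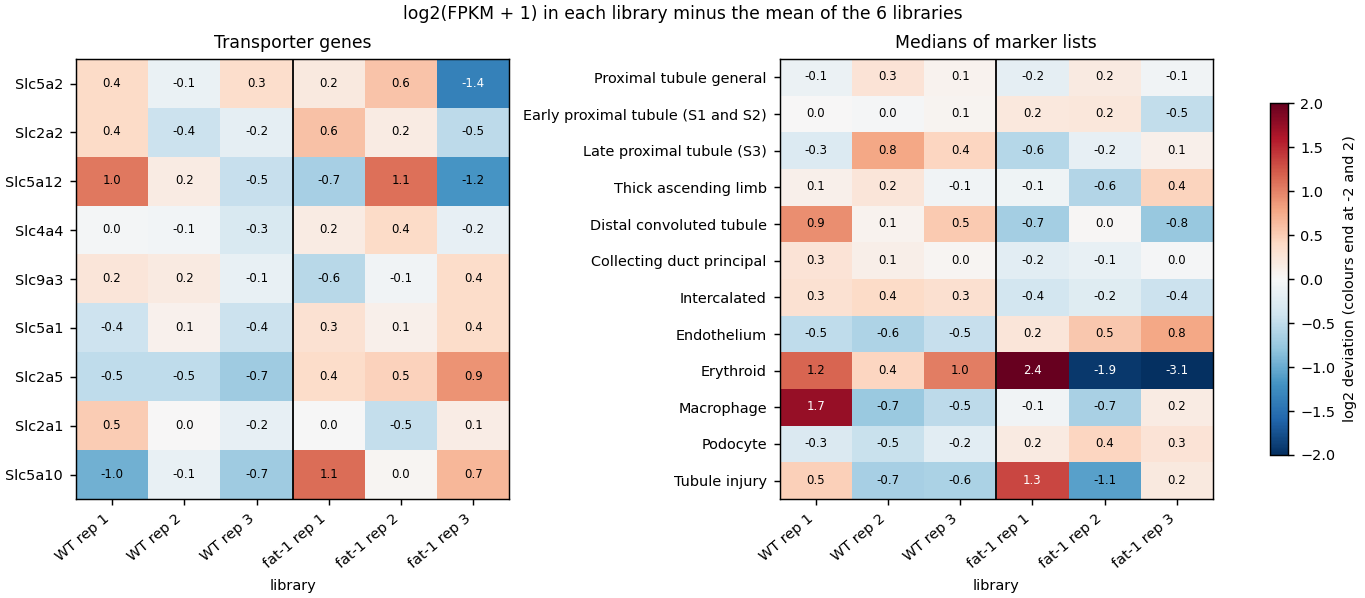
Colour and number give log2(FPKM + 1) in each library minus the mean of the 6 libraries, for the 9 transporter genes and for the median of each marker list. Fat-1 replicate 3 is lowest for Slc5a2 (-1.36) and Slc5a12 (-1.17), and the early marker list is lowest there too (-0.50).

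Some lists of other cell types also differed in level between the groups, while the erythroid and injury sums overlapped. All 7 endothelial markers had groups apart and higher in fat-1 (summed 76.3 to 93.3 FPKM in WT and 157 to 209 in fat-1), with 1 of 7 called. Over all genes tested 8.33% were apart and higher, 6.86% were apart and lower, and 0.180% were called. All 4 podocyte markers were likewise apart and higher (52.6 to 60.5 and 84.1 to 98.7 FPKM), with 0 of 4 called. The 5 erythroid markers summed to 131 to 235 FPKM in WT and to 534, 22.5 and 7.13 in fat-1 replicates 1 to 3. Slc2a1 was highest, at 16.4 FPKM, in WT replicate 1, the library with the most macrophage marker RNA. Of the 4 intercalated cell markers 3 were apart and lower in fat-1 (summed 87.3 to 91.6 FPKM in WT and 52.0 to 59.0 FPKM in fat-1), and the 4 distal convoluted tubule markers summed to 298 to 447 and 165 to 258 FPKM. The 5 injury markers summed to 684 to 1376 FPKM in WT and to 2623, 559.7 and 1428 in fat-1 replicates 1 to 3, so fat-1 replicate 1, the highest for Slc5a10, was also the highest for injury markers. The part of these lists in the transporter values was not tested.

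Transcripts were compared for the 4 genes with several, since alternative starts can change which protein is made. Of 19 listed transcripts of the 9 genes, 17 were tested and 0 were called in limma over 17119 transcripts, where 0.0584% passed (0.0467% higher in fat-1). 4 had an unadjusted p under 0.05 and groups apart and higher, those of Slc2a5 and Slc5a1 and 2 of Slc5a10. Over all transcripts 8.13% had an unadjusted p under 0.05 (4.52% higher), and 14.0% had groups apart (7.40% higher and 6.60% lower).

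For Slc5a10, transcript Slc5a10-201 begins at the upstream start (position 61720799), and Slc5a10-203 and Slc5a10-204 begin near the downstream start, whose windows are printed above. The upstream transcript measured 2.23, 11.7 and 0 FPKM in WT replicates 1 to 3 and 14.8, 25.0 and 15.3 in fat-1 replicates 1 to 3 (limma, adjusted p = 0.557 over transcripts). The downstream pair summed to 39.0, 61.6 and 49.0 FPKM in WT and 162, 58.8 and 114 in fat-1. The upstream values lay apart between the groups, while the downstream sums overlapped because of fat-1 replicate 2. The upstream share of the gene overlapped between the groups, at 0% to 16.0% in WT and 8.38% to 29.9% in fat-1. How reads in shared exons were divided between the Slc5a10 transcripts was not checked. Within the downstream pair, Slc5a10-204 measured 12.7, 29.1 and 15.2 FPKM in WT and 94.1, 32.3 and 66.9 in fat-1.

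For Slc4a4, nearly all of the FPKM was given to Slc4a4-207, which begins at the outer start and measured 111, 112 and 94.4 FPKM in WT replicates 1 to 3 and 131, 153 and 106 in fat-1. The RefSeq outer start lies at 88887260, inside Slc4a4-207, which is annotated to begin at 88886818. The 3 transcripts from the inner start, which in the kidney is known for the renal form NBCe1-A, summed to 12.6, 9.77 and 8.02 FPKM in WT and 11.2, 12.7 and 7.72 in fat-1. Their share of the gene was between 6.82% and 10.2% in every library. The inner-start transcript reaching farthest, Slc4a4-203, is annotated at 3335 bases against 7931 for Slc4a4-207, and how reads in shared exons were divided between them was not checked.

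**Figure D4:**
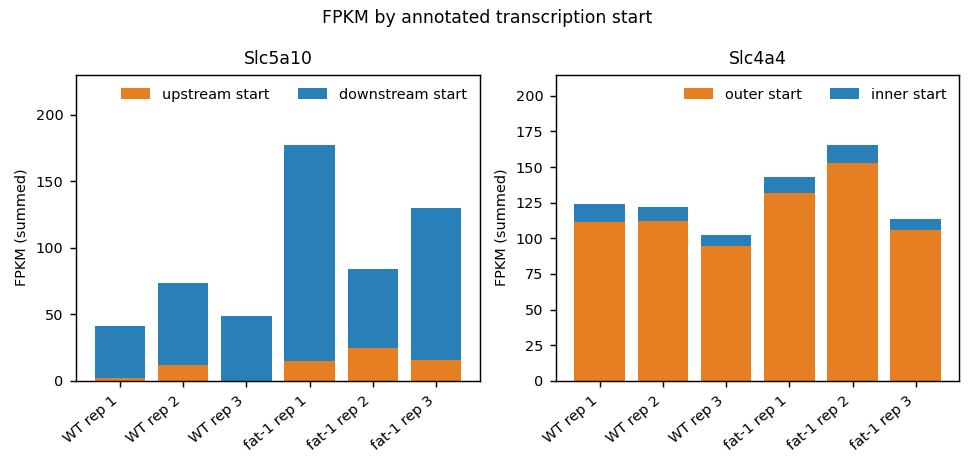
Summed FPKM per library (bars from 0) of transcripts from the upstream or downstream start of Slc5a10 and from the outer or inner start of Slc4a4. The upstream Slc5a10 segment is larger in every fat-1 library than in every WT library, and the inner Slc4a4 segment is a small share, at most 10.2%, throughout.

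Slc5a2 and Slc9a3 were each dominated by 1 transcript. Slc5a2-202 held 75.8% to 96.9% of the Slc5a2 FPKM, and Slc5a2-211, which was left out of the test, was listed at 15.2 FPKM in fat-1 replicate 1 and at 0 elsewhere. Slc9a3-203 held 81.8% to 96.5% of the Slc9a3 FPKM. Slc5a2-202 measured 96.2, 65.9 and 83.6 FPKM in WT and 66.8, 88.1 and 28.6 in fat-1, so fat-1 replicate 3 was the lowest for the main transcript as well.

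Related genes were grouped by role from lists of 77 genes, of which 72 were in the tables and 62 were tested. Only 1 passed in limma, Pck1 (higher), and its call was lost when WT replicate 3 or any 1 fat-1 library was left out. 38 differences were positive and 24 negative, with a median of 0.15 against 0.01 over all genes. 20 had groups apart and higher in fat-1 and 7 apart and lower, against 8.33% and 6.86% of all genes. Genes named in the following paragraphs beyond the 3 most abundant of each role were chosen after their values were seen.

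Enzymes acting on the carried sugars had 9 positive differences among 9 tested, with a median of 0.47, and 6 were apart and higher. Pck1, the entry enzyme of gluconeogenesis, measured 231, 309 and 187 FPKM in WT replicates 1 to 3 and 1657, 1904 and 1580 in fat-1 replicates 1 to 3. It rose by 2.84 ± 0.20 on the log2 scale (SE; limma, adjusted p = 0.0284). The other gluconeogenic enzymes in the list, Fbp1 (492 ± 70.7 FPKM in WT, 682 ± 88.5 in fat-1) and G6pc (153 ± 13.0 and 232 ± 51.4; SD, n = 3), were apart and higher without passing. 2 enzymes of fructose breakdown can be read beside Slc2a5 and Slc5a10. Khk, which phosphorylates fructose, measured 209, 208 and 238 FPKM in WT replicates 1 to 3 and 261, 231 and 290 in fat-1, with overlapping groups (limma, adjusted p = 0.633). Tkfc, which phosphorylates glyceraldehyde, measured 90.9, 112 and 109 FPKM in WT and 181, 175 and 196 in fat-1 (adjusted p = 0.0728 in limma). The Tkfc values were apart between the groups. Sord, which makes fructose from sorbitol, measured 602 ± 67.7 FPKM in WT and 617 ± 70.1 in fat-1 (SD, n = 3).

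Of 13 accessory and regulatory proteins, 8 had positive and 5 negative differences (median 0.32), 6 were apart and higher, 1 was apart and lower, and 0 were called. Pdzk1ip1 (MAP17), the activator of SGLT2, measured 198, 165 and 187 FPKM in WT replicates 1 to 3 and 171, 119 and 101 in fat-1, with WT replicate 2 and fat-1 replicate 1 overlapping. Among scaffolds that bind NHE3, Slc9a3r1 (NHERF1) measured 144, 160 and 151 FPKM in WT and 103, 113 and 123 in fat-1 (limma, adjusted p = 0.259). Slc9a3r2 (NHERF2) measured 15.1, 15.5 and 20.1 FPKM in WT and 28.1, 26.6 and 34.5 in fat-1 (adjusted p = 0.131 in limma). These scaffold genes were apart in opposite directions. Pdzk1, another scaffold of the brush border, measured 394 ± 77.5 and 451 ± 31.0 FPKM, and Ezr, which ties scaffolds to actin, 149.7 ± 12.3 and 146 ± 2.89 FPKM (SD, n = 3, WT and fat-1).

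Pdzd3, a further scaffold that binds NHE3, measured 52.1 ± 5.66 and 47.4 ± 1.19 FPKM (SD, n = 3), with overlapping groups and a log2 difference of -0.13. 3 others were chosen after their values were seen. Ahcyl1 (IRBIT), which activates NBCe1, measured 47.9, 52.8 and 49.2 FPKM in WT and 61.4, 59.9 and 66.0 in fat-1. Chp1, a cofactor of sodium-proton exchangers, measured 25.6, 31.0 and 18.2 FPKM in WT and 44.0, 36.4 and 31.9 in fat-1. Sgk1, a kinase that stimulates sodium carriers, measured 31.5, 21.8 and 23.6 FPKM in WT and 36.6, 37.3 and 64.4 in fat-1. These 3 were apart and higher in fat-1 without passing, with adjusted p of 0.359, 0.423 and 0.335 in limma.

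Genes of the driving force and of the bicarbonate chemistry were also read, as whole-kidney RNA only. The sodium pump subunit gene Atp1b1 (730 ± 38.0 FPKM in WT, 850.1 ± 12.8 in fat-1; SD, n = 3) was apart and higher in fat-1, with a log2 difference of 0.22. The pump modulator gene Fxyd2 was apart and lower, at 264, 253 and 273 FPKM in WT replicates 1 to 3 and 172, 140 and 198 in fat-1 (limma, adjusted p = 0.176). The basolateral potassium channel gene Kcnj16 overlapped between the groups. Among carbonic anhydrases, Car2 (cytosolic) measured 151 ± 16.3 and 195 ± 43.1 FPKM. Car4, the brush border form, measured 125, 234 and 271 FPKM in WT and 106, 133 and 107 in fat-1 (limma, adjusted p = 0.429), overlapping through WT replicate 1. Car14, a further membrane form, was apart and higher (38.1 ± 8.21 and 57.7 ± 9.57 FPKM; SD, n = 3), and Car15 was at 84.9 ± 5.19 and 69.7 ± 21.7 FPKM.

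Among other carriers, Slc26a1, a basolateral sulfate and bicarbonate exchanger, was apart and lower at 37.0, 43.7 and 42.3 FPKM in WT and 22.6, 31.1 and 11.7 in fat-1 (limma, adjusted p = 0.366). Slc26a6, a brush border anion exchanger, was apart and higher at 3.85, 2.68 and 5.35 FPKM in WT and 8.78, 5.37 and 6.35 in fat-1 (limma, adjusted p = 0.442). Slc4a2, an anion exchanger, measured 11.4 ± 2.43 and 11.3 ± 0.949 FPKM, and Slc4a9, of intercalated cells, 26.4 ± 5.44 and 20.1 ± 2.45 FPKM (SD, n = 3). Slc9a2, a second sodium-proton exchanger, was apart and higher at 7.01, 10.6 and 9.02 FPKM in WT and 15.2, 16.0 and 13.8 in fat-1 (limma, adjusted p = 0.172), while those of Slc9a3 overlapped. Slc9a8, another exchanger of this family, ranged from 0.169 FPKM in fat-1 replicate 3 to 15.8 FPKM in WT replicate 3.

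In the sugar carrier families, 2 of 5 tested Slc5 and 2 of 4 tested Slc2 relatives had positive differences and 0 were called. Slc5a11, an inositol cotransporter, was apart and lower at 24.8 ± 1.03 and 20.8 ± 2.48 FPKM (SD, n = 3; limma, adjusted p = 0.605). Slc5a3, the osmotically regulated inositol cotransporter, measured 12.4 ± 1.37 and 13.8 ± 9.84 FPKM (SD, n = 3). Slc2a4, the insulin-responsive glucose carrier, was apart and lower at 8.99, 9.96 and 11.0 FPKM in WT and 5.97, 5.50 and 7.58 in fat-1 (limma, adjusted p = 0.235). Slc2a8 and the urate carrier Slc2a9 overlapped. Phosphate cotransporters included Slc34a1, the main brush border form, at 1275 ± 123 and 1105 ± 251 FPKM, Slc20a1 at 10.9 ± 1.06 and 20.95 ± 7.55 FPKM, with groups apart and higher, and Slc20a2 at 12.1 ± 1.22 and 13.5 ± 1.59 FPKM (SD, n = 3).

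Transcription factors of the proximal tubule were not called (0 of 7). Hnf4a measured 162 ± 18.2 and 154 ± 8.81 FPKM and Maf 86.9 ± 17.8 and 66.6 ± 12.2 FPKM (SD, n = 3). Ppara, a nuclear receptor for fatty acids, was apart and higher at 8.56, 5.46 and 3.27 FPKM in WT and 9.01, 22.1 and 15.7 in fat-1 (limma, adjusted p = 0.314).

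The genes whose pattern over the 6 libraries lay nearest to the 2 glucose cotransporters were found by the root mean square difference of centred log2(FPKM + 1), among 11697 other tested genes. For Slc5a2 they were Parva (0.21), Tfpi2 (0.21) and Slc34a3 (0.22), the last a phosphate cotransporter ranging from 2.39 to 12.8 FPKM. All 3 were lowest in fat-1 replicate 3, as Slc5a2 was. For Slc5a1 they were Tsr2 (0.0605), Ssb (0.0677) and Slc16a9 (0.0725), the last a monocarboxylate carrier family gene at 38.7, 49.2 and 37.5 FPKM in WT and 55.6, 53.6 and 63.2 in fat-1. All 3 were higher in every fat-1 library than in every WT library. Because the genes were picked for likeness to Slc5a2 or Slc5a1 in these libraries, shared highs and lows follow largely from the choice. These distances are descriptions of 6 libraries.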

How the data were processed

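RNA-seq was run on 3 WT and 3 fat-1 kidney libraries from mice at 24 months. The deposited values are FPKM per protein-coding transcript, in 1 table for each library. The submitters' processing notes name HISAT2 2.0.5 among the tools, along with featureCounts 1.5.0-p3 and DESeq2 1.20.0, and the build mm10. Which tool made the FPKM is not given in the sources. Each of the 27486 listed transcripts reaches 0.5 FPKM in at least 1 library, so gene sums may miss minor transcripts. Counts were not used, sequencing depth is therefore unknown, and no intervals for counting error were computed. Summed FPKM ran from 387488 to 431081 per library, and 0 pairs of libraries were identical.

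FPKM were summed per gene (13696 genes). limma 3.58.1 in R 4.3.3, with trend and robust settings, was fitted to log2(FPKM + 1) without rescaling for the 11698 genes that reached 1 FPKM in 3 or more libraries, and likewise for transcripts. P-values were adjusted by the Benjamini-Hochberg method over every feature in a fit and called under 0.05. Tested on simulated data for this comparison (11698 genes, 200 changed 4-fold, 3 runs), the fit recovered 88.2% of the changed genes, and 4.85% of its calls were false. The changed genes were drawn from those with a mean log2(FPKM + 1) above 3, and noise was independent between genes. Smaller changes, such as that of Slc5a10 (ratio 2.39), and shifts shared by many genes were not simulated.

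The genes and lists were chosen with earlier results of these data known. The text names the 9 transporters, related genes that passed, the 3 most abundant per role, the 3 nearest patterns, and further genes said to be chosen after their values were seen. Transcript positions and lengths are those of GENCODE M21. Alternatives covered the pseudocount, filters, scaling, variance settings and libraries left out. Some genes and 1 promoter motif of the lists are not reported here.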

Additional observations from a re-analysis of the deposited data

How the results depend on the processing

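No paired analysis was possible because the labels themselves give the groups no shared replicate numbers. The numbers 1 to 3 used here were assigned in deposit order, only name samples and pair nothing. Of the 9 transporters, 5 kept their direction in all 16 alternatives (Slc5a1, Slc5a10, Slc2a5, Slc2a1 and Slc4a4). The other log2 differences turned when libraries were left out. Slc2a2 was -0.03 without WT replicate 2 and -0.10 without fat-1 replicate 1, Slc9a3 was 0.052 without fat-1 replicate 1, and Slc5a2 was 0.18 without fat-1 replicate 3. With WT replicate 1 and fat-1 replicate 3 both left out, Slc5a2 was 0.27, Slc2a2 0.68 and Slc5a12 0.36, and the early minus late median was -0.0066, against -0.69 with all libraries. With 1 library left out, Slc5a2 ranged from -0.78 to 0.18, Slc9a3 from -0.41 to 0.052, Slc5a12 from -1.17 (without fat-1 replicate 2) to -0.0345 (without fat-1 replicate 3), Slc2a2 from -0.10 to 0.45 (without fat-1 replicate 3), and the early minus late median from -0.82 to -0.27. The count of transporters called was 0, and 1 (Slc2a5) with the filter of 5 FPKM, and no transcript of theirs was called (0).

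The count of all genes called was 21. It was 4 with no filter, 42 with the filter of 5 FPKM, 8 with median-of-ratios scaling, 11 with upper-quartile scaling, 34 with quantile normalization, 33 when scaling left out mitochondrially encoded genes, and 3 with no trend. With 1 library left out it lay between 0 and 25. With both of the libraries named above left out it was 0 in limma, with 1389 genes at an unadjusted p under 0.05. The count of related genes called was 1, between 0 and 1 with 1 library left out, and 0 with both left out. The cause was not tested. The median over all genes moved by less than 0.1 in every setting. With 3 libraries a group, an exact permutation test of a single gene cannot go below 0.1.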
